A study of Mus musculus with 32 samples.

Results

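Ifit1, Ifit2, Ifit3, Mx1, Mx2, Ifi44, Usp18, Rtp4 and Ifi27l2a are interferon-stimulated genes, and they were taken by name: every non-control probe whose gene name is one of these 9 was used. The array held 9 such probes, 1 for each gene, out of 39429 non-control probes, and all 9 passed the filter on dim probes and were among the 15162 genes tested. The samples were whole blood of 32 male C57BL/6 mice in 6 groups: wild type (WT) 24 h after 8 Gy of X-rays (n = 5) or sham exposure at 0 Gy (n = 6), ATM-/- (ATM-KO) after 4 Gy (n = 6) or 0 Gy (n = 5), and Scid after 3 Gy (n = 5) or 0 Gy (n = 5). ATM-KO mice lack a kinase that signals DNA breaks, and Scid mice carry a mutation of Prkdc that impairs the joining of broken DNA ends. Each genotype received its own LD50/30 dose, so genotype and dose change together in every comparison of responses. The replicates were individual mice, with 1 Agilent 1-colour array each, and the blood was taken by cardiac puncture into PAXgene tubes and its RNA depleted of globin transcripts. Ages were not given in the sources used here.

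Type I interferons bind a receptor on the cell surface and, through the kinases Jak1 and Tyk2, activate a complex of transcription factors that enters the nucleus and switches on a large set of genes. The complex recognises a short promoter element, a pair of GAAA blocks set a few bases apart. The products of these genes bind foreign RNA, trap virus particles or slow protein synthesis, and some of them, Usp18 among them, turn the signal down again. In blood most kinds of white cell can mount this response, and the Ifit and Mx genes are widely used as its readout.

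The Ifit genes lie side by side on mouse chromosome 19, and the promoters of Ifit1 and Ifit3 hold letters that match this element. The 300-base promoter windows of RefSeq (GRCm38.p6, 250 bases before to 50 bases after the start) cover 4 of the 9 genes in 5 windows: Ifit1, Ifit2 (2 windows), Ifit3 and Ifi44. The motif searched was GAAA, any 2 bases and GAAA again, on both strands (on the other strand it reads TTTC, any 2 bases and TTTC). It occurred in the windows of Ifit1 and Ifit3, at 2 places in each. It occurred in 1131 of all 32851 windows, or 3.44%. The matches began 104 and 85 bases before the start of Ifit1, and 156 and 122 bases before that of Ifit3. The stretch from 170 to 61 bases before each start is shown because these are the members whose windows hold the letters. Capitals mark the matches, which all read as the TTTC form on the printed strand. The stretches are chr19:34640719-34640828 for Ifit1 and chr19:34583359-34583468 for Ifit3, both on the plus strand.
Ifit1: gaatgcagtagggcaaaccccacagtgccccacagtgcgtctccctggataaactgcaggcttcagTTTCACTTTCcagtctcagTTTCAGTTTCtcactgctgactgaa
Ifit3: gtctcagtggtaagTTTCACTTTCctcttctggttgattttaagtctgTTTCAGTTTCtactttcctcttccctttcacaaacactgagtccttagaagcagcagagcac
The same pair of cores, TTTCACTTTC and TTTCAGTTTC, occurred in both promoters. A match describes letters in a window and says nothing of binding in these mice.

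The probes themselves lie, in build mm9, on chromosome 19 for Ifit2 (34650244 to 34650303), Ifit3 (34663105 to 34663164) and Ifit1 (34723796 to 34723855). On chromosome 16 lie those of Rtp4 (23613668 to 23613727), Mx1 (97668644 to 97668703) and Mx2 (97782327 to 97782386). The probe of Ifi44 lies on chromosome 3 (151394035 to 151394094), that of Usp18 on chromosome 6 (121220874 to 121220933) and that of Ifi27l2a on chromosome 12 (104680394 to 104680453). RefSeq lists Mx1 and Mx2 as transcribed pseudogenes and the other 7 genes as protein coding. Laboratory strains such as C57BL/6 are known to carry disrupted alleles of both Mx genes, so their probes read transcript only. Ifit3 has a near-identical neighbour, Ifit3b, and a probe for one can read transcripts of the other.

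Levels are log2 of the processed signal of a spot with the array's own 75th percentile set to 0, so each value says how far above or below that percentile the probe was. Levels of different probes are not comparable with each other. A probe counts as measured on an array where the scanner software marked it well above background. In bulk blood, fewer cells of a type and less RNA per cell cannot be told apart. The share of probes well above background ran from 20.0 to 58.6% per array, and was 45.9 to 58.6% in WT 8 Gy, against 28.2 to 53.5% in WT 0 Gy. The probes for Atm and Prkdc were well above background on at most 3 of 32 arrays, so they do not check the genotype labels. Marker scores (the mean of a list's levels, each gene set to its mean over 32 arrays) went against the label on 2 arrays. The B cell score of Scid 0 Gy replicate 4 was 1.12, against -2.39 to -0.93 on the other 9 Scid arrays, and its T cell score was 0.85, against -1.71 to -0.31. WT 0 Gy replicate 3 had a B cell score of -1.89, against -0.50 to 2.59 on the other 5 WT 0 Gy arrays, and a T cell score of -0.66, against -0.30 to 1.40. Results that use either array were also computed without both, and no call for the 9 genes in the irradiation comparisons changed. Liver transcripts were bright on some arrays: their score was 5.51 and 6.07 on WT 8 Gy replicates 1 and 2, 6.14 on WT 0 Gy replicate 5 and 5.67 on ATM-KO 4 Gy replicate 3.

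In WT blood 24 h after 8 Gy, 5 of the 9 genes rose: Ifit3, Mx1, Ifi27l2a, Rtp4 and Mx2. All 9 had a higher mean at 8 Gy than at 0 Gy, with a median log2 fold change of 1.97 over the 9 genes, where the median over all genes tested was -0.02. Genes called higher made up 1.13% of all genes tested (172 of 15162), by limma with Benjamini-Hochberg adjusted p under 0.05. None of the 9 was called lower, against 6.07% of all genes. For 5 of the 9, Ifit3, Mx1, Usp18, Rtp4 and Ifi27l2a, every 8 Gy array lay above every 0 Gy array, which held for 1.19% of all genes. Mx1, Mx2 and Ifi44 passed the filter on dim probes by their WT 8 Gy arrays alone (measured on 5, 5 and 4 of 5), so a count or median that includes them is a description. Of the 6 genes measured on 4 or more arrays of every group, 3 were called higher in WT, with a median log2 fold change of 1.85.

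**Figure D1:**
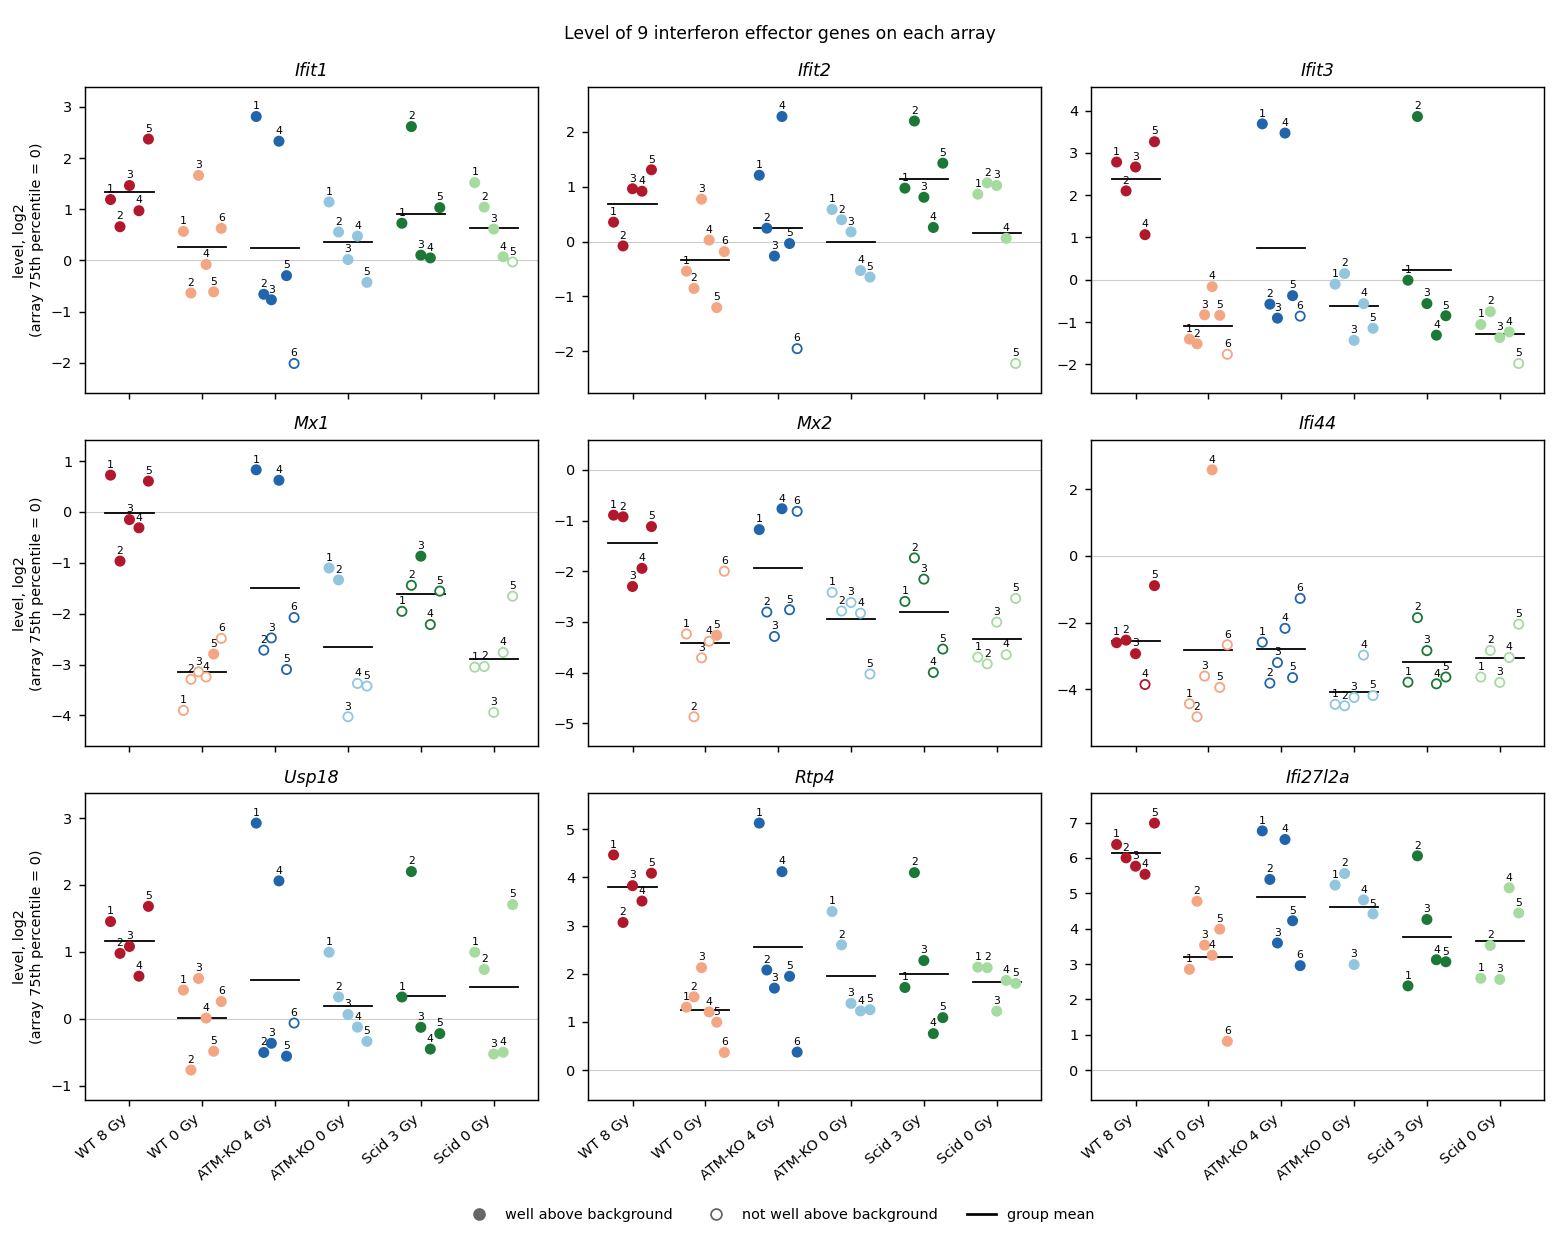
Level of each of the 9 genes on each of the 32 arrays (log2, 75th percentile of the array = 0), by group, with replicate numbers above the points. Filled points were well above background, hollow ones were not, and lines are group means. The 5 WT 8 Gy arrays lie above the 6 WT 0 Gy arrays for Ifit3, Mx1, Usp18, Rtp4 and Ifi27l2a, while in ATM-KO 4 Gy replicates 1 and 4 and in Scid 3 Gy replicate 2 stand above the rest for most genes.

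The 3 Ifit genes encode tetratricopeptide repeat proteins, of which Ifit1 binds viral RNA whose cap lacks methylation. Ifit3, a partner of Ifit1 in human cells, had levels of 2.78, 2.10, 2.67, 1.07 and 3.26 in WT 8 Gy blood, against -1.40, -1.51, -0.83, -0.16, -0.84 and -1.76 in WT 0 Gy blood. The lowest irradiated array, replicate 4, was still above the highest sham array, also replicate 4. The log2 fold change was 3.46 (SE 0.77, 95% interval 1.88 to 5.04, an 11.01-fold rise, limma adjusted p = 0.00341). Ifit3 also carries the caution given above about Ifit3b.

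Ifit1 and Ifit2 did not pass the test in WT. Ifit1 had 1.19, 0.66, 1.46, 0.97 and 2.37 at 8 Gy, against a lowest, median and highest level of -0.64, 0.24 and 1.66 at 0 Gy. Ifit2, which limits neurotropic viruses in mice, had 0.35, -0.08, 0.96, 0.92 and 1.31 at 8 Gy, against -1.20, -0.36 and 0.77 at 0 Gy. For both genes the highest sham array was WT 0 Gy replicate 3, 1 of the 2 arrays whose lymphocyte markers went against the label. Their log2 fold changes were 1.08 (95% interval -0.20 to 2.36, limma adjusted p = 0.341) and 1.02 (95% interval -0.13 to 2.18, limma adjusted p = 0.31). Without that array and Scid 0 Gy replicate 4 they were 1.36 and 1.24, with adjusted p of 0.255 and 0.258. Ifit2 passed under 4 alternatives: normexp (0.69), array weights (1.23), the authors' deposited values with missing values allowed (1.45) and scaling to spike-in probes (2.36). Ifit1 passed with spike-in scaling (2.42), under which 34.6% of all genes were called higher in WT.

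Mx1 and Mx2 are dynamin-like GTPases that in mice with intact alleles block influenza virus in the nucleus (Mx1) or vesicular stomatitis virus in the cytoplasm (Mx2). The Mx1 transcript had levels of 0.72, -0.97, -0.15, -0.31 and 0.60 in WT 8 Gy blood, all well above background, against -3.90, -3.29, -3.14, -3.24, -2.79 and -2.49 in WT 0 Gy blood, where 1 of 6 arrays (replicate 5) was well above background. The groups were far apart, and Mx1 rose by 3.12 on the log2 scale (SE 0.61, 95% interval 1.88 to 4.36, 8.71-fold, limma adjusted p = 0.000713). This fold rests on sham levels of which 5 of 6 were not well above background. With the normexp background correction it was 0.66 (adjusted p = 0.145).

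Mx2 also rose. Its levels were -0.89, -0.93, -2.30, -1.94 and -1.12 in WT 8 Gy blood, measured on all 5 arrays, against -3.24, -4.87, -3.71, -3.38, -3.26 and -2.00 in WT 0 Gy blood, measured on 1 of 6. WT 0 Gy replicate 6, itself not well above background for Mx2, reached into the irradiated range. Its log2 fold change was 1.97 (SE 0.50, 95% interval 0.96 to 2.99, limma adjusted p = 0.0101). It did not pass with normexp (0.13, adjusted p = 0.709) or without the 4 arrays bright for liver transcripts (1.65, adjusted p = 0.117).

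Rtp4 is a chaperone that helps some receptors reach the cell surface. Its levels were 4.47, 3.06, 3.83, 3.51 and 4.09 in WT 8 Gy blood, against 1.31, 1.52, 2.13, 1.21, 0.99 and 0.37 in WT 0 Gy blood. It rose by 2.54 (SE 0.61, 95% interval 1.30 to 3.77, 5.81-fold, limma adjusted p = 0.00624). Ifi27l2a, a small protein of mitochondrial and nuclear membranes, had 6.38, 6.00, 5.77, 5.54 and 6.99 at 8 Gy, against 2.85, 4.78, 3.53, 3.25, 3.99 and 0.81 at 0 Gy. The lowest sham array was replicate 6, which also had the fewest probes above background of its group. Ifi27l2a rose by 2.93 (SE 0.71, 95% interval 1.50 to 4.37, 7.64-fold, limma adjusted p = 0.00655). Both genes were well above background on all 11 WT arrays.

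Usp18 removes Isg15 from proteins and restrains the interferon receptor. It had 1.45, 0.98, 1.08, 0.64 and 1.68 in WT 8 Gy blood, against 0.43, -0.77, 0.60, 0.01, -0.49 and 0.26 in WT 0 Gy blood. The ranges did not overlap, but the gap between them was narrow (0.64 against 0.60) and the gene did not pass the test over all genes (log2 fold change 1.16, 95% interval 0.04 to 2.27, unadjusted p = 0.0422, limma adjusted p = 0.221). It passed under 4 alternatives, at 1.59 to 2.50. They were the 75th percentile over probes detected on all arrays, spike-in scaling, and the authors' deposited values with and without missing values allowed. The spread used by the test is shared by all 6 groups. For Usp18 the SD was 0.41 in WT 8 Gy, 0.54 in WT 0 Gy, 1.5 in ATM-KO 4 Gy and 0.51 in ATM-KO 0 Gy. In Scid 3 Gy it was 1.08, and in Scid 0 Gy 0.98.

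Ifi44, an interferon-induced cytoplasmic protein, was often near background. It had -2.60, -2.53, -2.93, -3.85 and -0.89 in WT 8 Gy blood, of which all but replicate 4 were well above background, against -4.43, -4.82, -3.60, 2.57, -3.94 and -2.66 in WT 0 Gy blood. WT 0 Gy replicate 4 was the only sham array where Ifi44 was well above background and was the highest of all 32 arrays for this gene. The log2 fold change was 0.25 (95% interval -1.39 to 1.90, limma adjusted p = 0.881), and 1.33 without WT 0 Gy replicate 4 (adjusted p = 0.17). It turned to -0.07, -0.15 and -0.16 without WT 0 Gy replicate 1, WT 0 Gy replicate 2 and WT 8 Gy replicate 5.

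**Figure D2:**
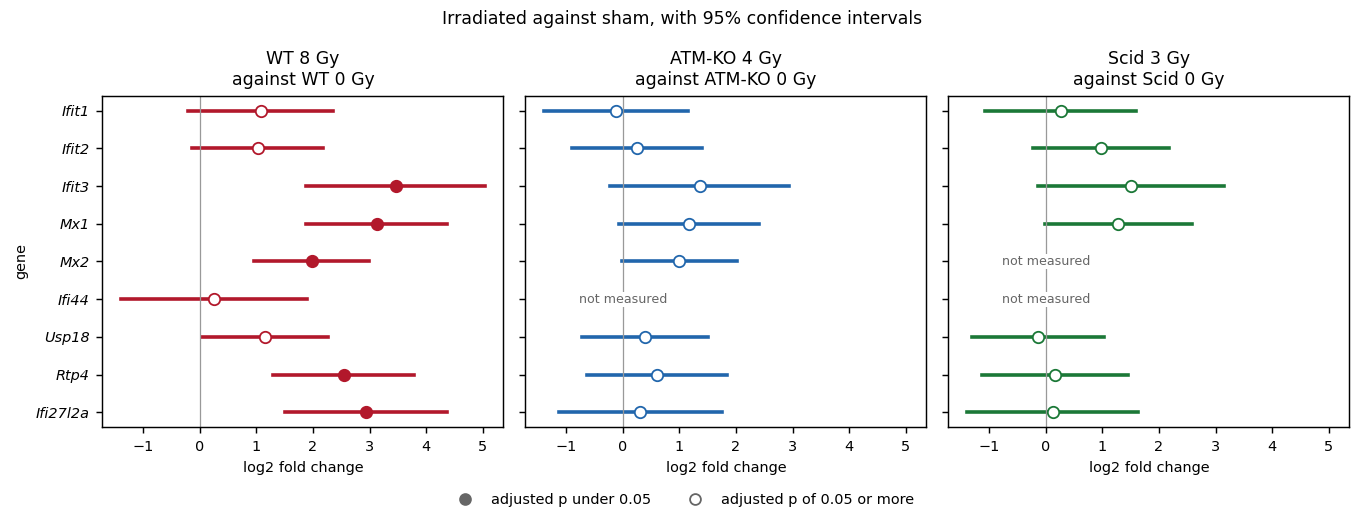
Log2 fold change of each gene, irradiated against sham, within WT (8 Gy against 0 Gy), ATM-KO (4 Gy against 0 Gy) and Scid (3 Gy against 0 Gy), with 95% intervals from limma. Filled points have an adjusted p under 0.05, which only Ifit3, Mx1, Mx2, Rtp4 and Ifi27l2a in WT have, and genes with no array well above background in either group are marked as not measured. Mx2 in ATM-KO and Mx1 in Scid were at background on all 0 Gy arrays, so their plotted values rest on background.

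The scan days that held both WT groups gave the same direction for the 5 called genes. On scan day 1 (1 array at 8 Gy and 3 at 0 Gy) the differences were 4.03 for Ifit3, 4.17 for Mx1, 3.04 for Mx2, 2.82 for Rtp4 and 2.66 for Ifi27l2a. On scan day 2 (3 arrays and 2 arrays) they were 2.45, 2.54, 1.60, 2.37 and 2.15 in the same order of genes. Leaving out each of the 11 WT arrays in turn left the same 5 genes called. Without WT 0 Gy replicate 3 and Scid 0 Gy replicate 4 they were again called. Their log2 fold changes were then 3.51 (Ifit3), 3.12 (Mx1), 1.91 (Mx2), 2.71 (Rtp4) and 3.00 (Ifi27l2a). Usp18 and Ifi44 had 1.28 and 0.09 and were not called. The genes tested were not chosen anew in these omissions. Mx1 and Mx2 passed the filter on dim probes by their WT 8 Gy arrays alone. For both genes, the scan-day values and calls above are a description. The erythroid score ran the other way, at -3.13 to -1.67 in WT 8 Gy, against -0.22 to 1.79 in WT 0 Gy. The neutrophil score was -0.90 to 0.45 in WT 8 Gy, against -0.64 to 0.50 in WT 0 Gy, and the monocyte score -0.35 to 0.78, against -0.96 to 0.29. The B cell score was -1.50 to -0.36 in WT 8 Gy, against -1.89 to 2.59 in WT 0 Gy. The part of blood cell makeup in the rise of these genes was not tested.

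In ATM-KO blood 24 h after 4 Gy, none of the 9 genes passed the test, and the group split by array instead. On 2 of the 6 irradiated arrays, replicates 1 and 4, all 9 genes lay above every ATM-KO 0 Gy array, although Ifi44 was not well above background on either. On replicates 2, 3 and 5 not 1 of the 9 did, and on replicate 6 only Mx2 and Ifi44 did, neither well above background there. The share of all genes above every sham array on a single array is not given here, so these counts are a description. Over all genes, 0.0725% were called higher and 0.165% lower in this comparison (11 and 25 of 15162), and none of the 9 had an unadjusted limma p under 0.05. No gene of the 9 had groups that did not overlap, against 0.435% of all genes with every 4 Gy array above.

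Ifit3 shows the split. It had levels of 3.69, -0.58, -0.91, 3.47, -0.38 and -0.86 in ATM-KO 4 Gy blood, against -0.10, 0.15, -1.43, -0.57 and -1.15 in ATM-KO 0 Gy blood. Replicates 1 and 4 were above every WT 8 Gy array, and the other 4 replicates lay within the sham range. The group means differed by 1.36 on the log2 scale (95% interval -0.22 to 2.94, limma adjusted p = 0.517). It was 0.77 without replicate 1 and 0.81 without replicate 4.

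Mx1 was well above background on replicates 1 and 4 alone of the ATM-KO 4 Gy group. Its levels there were 0.83, -2.72, -2.48, 0.62, -3.10 and -2.08, against -1.10, -1.34, -4.03, -3.37 and -3.42 in ATM-KO 0 Gy blood, where replicates 1 and 2 were measured. The log2 fold change was 1.17 (95% interval -0.08 to 2.41, limma adjusted p = 0.454). Mx2 was likewise measured on replicates 1 and 4 alone (-1.18 and -0.77) and on no ATM-KO 0 Gy array, so no fold is given (limma adjusted p = 0.425). Ifi44 was not well above background on any of the 11 ATM-KO arrays and has no fold here.

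For Rtp4 the 6 irradiated levels were 5.13, 2.08, 1.70, 4.12, 1.95 and 0.37, against 3.29, 2.60, 1.38, 1.23 and 1.25 in ATM-KO 0 Gy blood. Usp18 had 2.92, -0.50, -0.37, 2.06, -0.56 and -0.06 at 4 Gy, against 0.99, 0.33, 0.06, -0.13 and -0.34 at 0 Gy. Replicates 1 and 4 were again the highest for both genes. The log2 fold changes were 0.61 (95% interval -0.63 to 1.84) for Rtp4 and 0.40 (95% interval -0.72 to 1.51) for Usp18, with limma adjusted p of 0.78 and 0.859. Without replicate 1 they were 0.09 and -0.07.

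Replicates 1 and 4 were the highest of their group for Ifit1 and Ifit2 too. Ifit1 had 2.81, -0.66, -0.77, 2.33, -0.30 and -2.01 in ATM-KO 4 Gy blood, against 1.14, 0.56, 0.02, 0.48 and -0.43 in ATM-KO 0 Gy blood. Ifit2 had 1.21, 0.24, -0.26, 2.28, -0.04 and -1.95 at 4 Gy, against 0.58, 0.40, 0.18, -0.53 and -0.65 at 0 Gy. The lowest level of each was on replicate 6, not well above background, and this array had the fewest probes above background of all 32 (20.0%). The log2 fold changes were -0.12 (95% interval -1.40 to 1.16) and 0.25 (95% interval -0.91 to 1.41), with limma adjusted p of 0.971 and 0.929. Without replicate 6 they were 0.33 and 0.69, Ifit1 turned positive also without ATM-KO 0 Gy replicate 1 (0.08) and ATM-KO 4 Gy replicates 2 (0.06) and 3 (0.08), and Ifit2 turned negative without replicate 4 (-0.16).

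For Ifi27l2a replicates 1 and 4 were again highest, and replicate 2 lay in the upper sham range. It had 6.77, 5.39, 3.59, 6.52, 4.22 and 2.95 in ATM-KO 4 Gy blood, against 5.23, 5.56, 2.98, 4.81 and 4.42 in ATM-KO 0 Gy blood. The ATM-KO 0 Gy arrays spread over 2.98 to 5.56, and the log2 fold change was 0.31 (95% interval -1.13 to 1.75, limma adjusted p = 0.929). It turned negative without ATM-KO 4 Gy replicate 1 (-0.06) or 4 (-0.02) and without ATM-KO 0 Gy replicate 3 (-0.10).

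**Figure D3:**
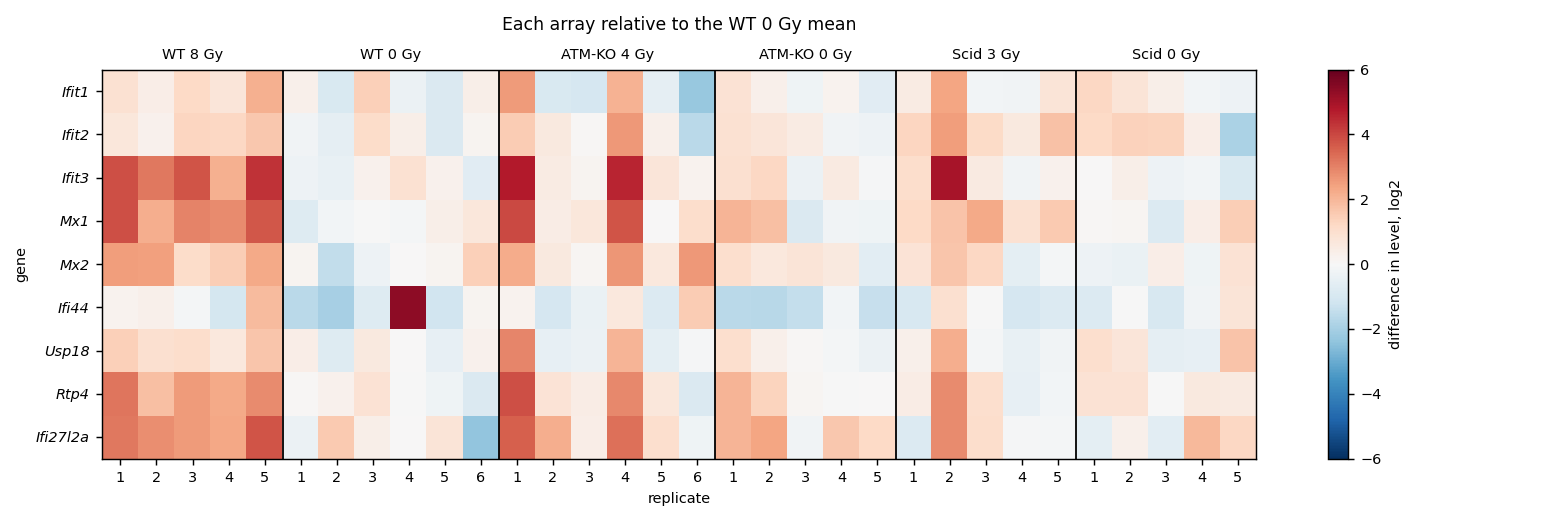
Level of each gene on each array minus that gene's mean in WT 0 Gy (log2), arrays in columns by group and replicate. All 5 WT 8 Gy columns are red for Ifit3, Mx1, Mx2, Rtp4 and Ifi27l2a, whereas in ATM-KO 4 Gy the strong red sits in replicates 1 and 4 and in Scid 3 Gy in replicate 2. The single dark cell in WT 0 Gy is Ifi44 on replicate 4, at a level of 2.57.

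The mean of the members sums up these levels array by array. The mean of 8 members (without Ifi44, each gene set to its mean over 32 arrays) was 2.36 and 2.16 on ATM-KO 4 Gy replicates 1 and 4, and -0.36, -0.76, -0.53 and -0.97 on replicates 2, 3, 5 and 6. It was 1.82 on Scid 3 Gy replicate 2, and between -0.89 and 0.05 on the other 4 Scid 3 Gy arrays. In WT 8 Gy it ran from 0.88 to 1.98, against -1.12 to -0.29 in WT 0 Gy. This mean includes Mx1 and Mx2, which passed the filter on dim probes by their WT 8 Gy arrays alone. The gap between the WT groups is therefore a description. ATM-KO 0 Gy arrays ran from -0.96 to 0.54 and Scid 0 Gy arrays from -0.84 to -0.30.

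Other measures differed between the ATM-KO 4 Gy arrays as well. The score of 8 natural killer cell markers was 1.39 and 0.97 on replicates 1 and 4, and -0.40, -1.14, -0.78 and -0.83 on replicates 2, 3, 5 and 6. The platelet score (8 markers) was 0.87 and 0.81, and -0.50, -0.81, -0.64 and -1.37 in the same order. The monocyte score (9 markers) was 0.99 and 0.86, and 0.15, -0.36, -0.52 and -0.54. The T cell score was 0.37 and 1.01, and 0.07, -0.25, -0.30 and 0.29. The liver score was -3.15 and -2.52, and -2.32, 5.67, 3.30 and -1.06. For neutrophils the score was 0.21 and 0.16, and -0.58, -0.07, 1.35 and 0.30. B cell markers gave -0.20 and 0.09, and 1.36, -0.01, -0.04 and 0.51. On the erythroid list the values were 0.21 and -0.86, and -0.51, -1.21, -0.90 and 0.40. The part of these in the split was not tested. Replicate 1 was scanned on day 1 with 4 ATM-KO 0 Gy arrays. Replicates 2 to 5 were scanned on day 2 with none, and replicate 6 on day 3 with 1. Day 2 therefore gives no within-day value. Replicate 4 shared day 2 with replicates 2, 3 and 5, and its slide with replicate 5. The part of scan day and slide in the split was not tested. Within day 1 the difference of Ifit3 was 4.18 and that of Rtp4 3.00, and within day 3 they were 0.29 and -0.88, each resting on 1 irradiated array.

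In Scid blood 24 h after 3 Gy none of the 9 genes passed the test either, and 1 array stood apart. Replicate 2 lay above every Scid 0 Gy array for all 9 genes, although Mx1, Mx2 and Ifi44 were not well above background on it. Replicates 1, 3, 4 and 5 did so for 1, 4, 0 and 2 of them. These counts too are a description, without the share of all genes on the same arrays. Among all genes, 0.0594% were called higher and 1.02% lower (9 and 154 of 15162), and no member had an unadjusted limma p under 0.05. Groups that did not overlap, with the irradiated one higher, were found for 0.455% of all genes and none of the 9.

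Ifit3 had levels of -0.01, 3.86, -0.56, -1.31 and -0.85 in Scid 3 Gy blood, against -1.06, -0.75, -1.37, -1.23 and -1.98 in Scid 0 Gy blood. Replicate 2 held the highest Ifit3 level of the 32 arrays. Replicates 1 and 3 also lay above the sham range, and replicates 4 and 5 within it. Its log2 fold change was 1.50 (95% interval -0.15 to 3.15, limma adjusted p = 0.582), and 0.60 without replicate 2.

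Mx1 was the 1 member whose highest array was not replicate 2. It had -1.95, -1.44, -0.87, -2.21 and -1.56 in Scid 3 Gy blood, against -3.05, -3.04, -3.94, -2.76 and -1.66 in Scid 0 Gy blood, and only replicate 3 at 3 Gy was well above background. With 1 of 5 irradiated arrays and 0 of 5 sham arrays measured, no fold is given (limma adjusted p = 0.527). Mx2 and Ifi44 were not well above background on any of the 10 Scid arrays.

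Ifit2 had 0.97, 2.20, 0.81, 0.26 and 1.43 in Scid 3 Gy blood, against 0.86, 1.07, 1.02, 0.06 and -2.22 in Scid 0 Gy blood. The last sham value, of replicate 5, was not well above background, and that array had 25.0% of its probes above background. Its log2 fold change was 0.97 (95% interval -0.23 to 2.18, limma adjusted p = 0.643), and 0.38 without Scid 0 Gy replicate 5.

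For the other 4 measured genes the difference of the means was near 0. Rtp4 had 1.71, 4.10, 2.27, 0.76 and 1.09 in Scid 3 Gy blood, against 2.14, 2.12, 1.22, 1.86 and 1.80 in Scid 0 Gy blood. Ifi27l2a had 2.38, 6.06, 4.26, 3.12 and 3.06 at 3 Gy, against 2.60, 3.52, 2.56, 5.15 and 4.44 at 0 Gy. Replicate 2 was the highest array for both genes, and the groups overlapped. Their log2 fold changes were 0.16 (95% interval -1.13 to 1.45) and 0.12 (95% interval -1.38 to 1.62), with limma adjusted p of 0.967 and 0.978, and without replicate 2 they were -0.37 and -0.45. Ifi27l2a turned negative also without Scid 0 Gy replicate 1 (-0.14) or 3 (-0.15), and was just below 0 without Scid 3 Gy replicate 3.

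Ifit1 had 0.73, 2.61, 0.10, 0.05 and 1.03 in Scid 3 Gy blood, against 1.52, 1.04, 0.61, 0.07 and -0.03 in Scid 0 Gy blood. Usp18 had 0.32, 2.20, -0.13, -0.45 and -0.22 at 3 Gy, against 0.99, 0.74, -0.53, -0.50 and 1.71 at 0 Gy. Replicate 2 was the highest array for both. The log2 fold changes were 0.26 (95% interval -1.07 to 1.60) for Ifit1 and -0.14 (95% interval -1.30 to 1.03) for Usp18, with limma adjusted p of 0.95 and 0.969. Without replicate 2 they were -0.17 and -0.60, and Usp18 turned to 0.17 without Scid 0 Gy replicate 5 to 0.06 without Scid 3 Gy replicate 4 and to just above 0 without Scid 3 Gy replicate 5. Without Scid 0 Gy replicate 4 and WT 0 Gy replicate 3, Usp18 had -0.38, Ifit1 0.12 and Ifi27l2a 0.49.

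Scid 3 Gy replicate 2 also stood above the other 4 arrays of its group in several marker scores. Its B cell score was -1.25, and -1.52 to -1.29 on the others. Its neutrophil score was 0.89, and -1.94 to -0.39 on the others. Its platelet score was 1.54, and 0.40 to 1.11 on the others. Its T cell score was -0.31, and -1.71 to -0.70 on the others, and its erythroid score was 0.13, and -1.23 to -0.03. The natural killer score was 0.02, within the -0.07 to 0.51 of the others. Its monocyte score was -0.21, also within the -0.46 to -0.17 of the others. The part of these in the high levels was not tested. On scan day 1 (2 arrays at 3 Gy and 4 at 0 Gy) the difference was 3.03 for Ifit3, 1.07 for Rtp4 and 0.76 for Ifi27l2a. On scan day 2 (2 arrays and 1 array, without replicate 2) it was 1.04, -0.28 and -0.75 for the same genes.

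No member was called between genotypes at 0 Gy. Of all 15162 genes, 0% were called in either sham comparison by limma, although 342 (ATM-KO against WT) and 497 (Scid against WT) had an unadjusted p under 0.05, and 0 of the 9 had an unadjusted p under 0.05. Among the 7 genes measured in both groups, ATM-KO 0 Gy minus WT 0 Gy ran from 0.10 to 1.40, the highest being Ifi27l2a (95% interval -0.04 to 2.84, limma adjusted p = 1). Among the 6 measured in both, Scid 0 Gy minus WT 0 Gy ran from -0.19 to 0.58. Without Scid 0 Gy replicate 4 and WT 0 Gy replicate 3 that range was -0.15 to 0.84, with Ifit1 at 0.81 (adjusted p = 0.545) and Usp18 at 0.84 (adjusted p = 0.486). Without them 1 gene was called higher and 34 lower over all genes in Scid 0 Gy against WT 0 Gy, 0 of them members, and 0 genes were called in ATM-KO 0 Gy against WT 0 Gy. The sham comparisons share the 6 WT 0 Gy arrays.

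Whether the responses differ was tested on the difference of the log2 fold changes. ATM-KO minus WT was negative for all 6 genes measured on 4 or more arrays of every group, from -2.63 to -0.76. Of the 9 genes 0 were called (0% of all genes, with 1294 at an unadjusted limma p under 0.05). Ifi27l2a had -2.63 (95% interval -4.66 to -0.59, unadjusted p = 0.013, limma adjusted p = 0.481) and Rtp4 -1.93 (95% interval -3.68 to -0.18, unadjusted p = 0.0315, limma adjusted p = 0.542). Mx1 passed the filter on dim probes by its WT 8 Gy arrays alone, so its difference of -1.96 is a description. It was well above background on 1 of 6 WT 0 Gy and 2 of 5 ATM-KO 0 Gy arrays, and its difference was -0.35 with normexp. With the spike-in probes as the common level 8 of the 9 were called lower, as were 91.8% of all genes (13920 of 15162), so that count is no result about these 9. Scid minus WT was negative for all 6 genes measured in the 4 groups, from -2.81 to -0.05, again with 0 called (0% of all genes, with 1077 at an unadjusted limma p under 0.05). Here Ifi27l2a had -2.81 (95% interval -4.89 to -0.73, unadjusted p = 0.00962) and Rtp4 -2.38 (95% interval -4.17 to -0.59, unadjusted p = 0.0107), each with a limma adjusted p of 0.679. Mx1 lay at background in Scid 0 Gy and is left out. Without the 2 arrays that go against their label, 2 genes were called higher for Scid minus WT over all genes, 0 of them members. Both differences use the same 11 WT arrays. ATM-KO minus Scid ran from -0.72 to 0.54 over 6 genes, with intervals between -2.43 and 2.27 and 0 called (0% of all genes), none of the 9 having an unadjusted limma p under 0.05.

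The order of the 6 groups was taken over the 6 genes measured on 4 or more arrays of each, since Mx1, Mx2 and Ifi44 lay at background on most arrays outside WT 8 Gy. WT 8 Gy had the highest mean of 5 of the 6 genes, the exception being Ifit2 (Scid 3 Gy 1.13, WT 8 Gy 0.69). WT 0 Gy had the lowest mean of 4. The order for Ifit3 was WT 8 Gy (2.38), ATM-KO 4 Gy (0.74), Scid 3 Gy (0.23), ATM-KO 0 Gy (-0.62), WT 0 Gy (-1.09) and Scid 0 Gy (-1.28). For Ifi27l2a it was WT 8 Gy (6.13), ATM-KO 4 Gy (4.91), ATM-KO 0 Gy (4.60), Scid 3 Gy (3.78), Scid 0 Gy (3.66) and WT 0 Gy (3.20). In all 30 pairs of neighbours in these orders the ranges of the arrays overlapped. The SD of a gene within a group had a median over the 6 genes of 0.56 in WT 8 Gy, against 0.64 in WT 0 Gy, of 1.65 in ATM-KO 4 Gy, against 0.63 in ATM-KO 0 Gy, and of 1.20 in Scid 3 Gy, against 0.82 in Scid 0 Gy.

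Within the groups the members varied together to different degrees. ATM-KO 4 Gy replicates 1 and 4 and Scid 3 Gy replicate 2 lay far above their group means for most members. They enter every correlation here, and none was computed without them. As a description over the 32 arrays, which share their scaling, the correlation of deviations from the group means had a median of 0.49 over the 36 pairs, from 0.01 for Ifit2 with Ifi44 to 0.86 for Ifit3 with Rtp4. Ifit3 followed the mean of the other 8 most closely (r = 0.92), then Rtp4 (0.85), Usp18 (0.84) and Ifit1 (0.80), while Ifi44 was at 0.22 and Mx2 at 0.46. The non-member genes whose deviations were most like the mean of the 9 were Oasl1 and Zbp1 (r = 0.85 each), Ifit3b, Nt5m and Xaf1 (0.84 each), Cmpk2 and Ormdl1 (0.83 each) and Med21 (0.82), over 32 arrays. Of these, Oasl1, Zbp1, Xaf1 and Cmpk2 belong to the wider interferon list described next.

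A list of 75 other genes of the interferon pathway, of which 64 were tested, was described by counts. In WT, 11 of the 64 were called higher and 6 lower at 8 Gy, with a median log2 fold change of 0.76. Over all genes tested, 1.13% were called higher and 6.07% lower, so the count lower is no result about this list. The 4 called genes of largest change were Slfn4, Oas2, Rsad2 and Oas1a, and 1 of them, Rsad2, fell. Slfn4, a Schlafen protein of myeloid cells, had levels of 1.31 to 2.30 in WT 8 Gy, against -2.93 to -1.63 in WT 0 Gy (log2 fold change 4.21, SE 0.73, limma adjusted p = 0.000174). The oligoadenylate synthetases Oas2 and Oas1a, which activate RNA decay, rose by 4.07 (SE 0.80, adjusted p = 0.000737) and 3.08 (SE 0.65, adjusted p = 0.00185). In WT 0 Gy, Slfn4 was well above background on 3 of 6 arrays and Oas2 on 4 of 6, so their folds rest partly on background. Rsad2, the antiviral enzyme viperin, fell by 3.84 (SE 0.54, limma adjusted p = 9.09e-06), with levels of 3.60 to 5.79 in WT 8 Gy, against 6.99 to 9.73 in WT 0 Gy.

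By role, effectors had 9 called higher and 4 lower of 40 tested in WT, and sensors 2 higher and 1 lower of 7. The shares over all genes were 1.13% higher and 6.07% lower. Receptors and kinases had 0 called of 6, transcription factors 0 of 7 and ligands 0 of 2, and 1 of 2 genes that restrain signalling was lower. Among the factors, the log2 fold changes in WT were 1.26 (Stat2), -1.35 (Irf7) and 1.37 (Irf9), with limma adjusted p of 0.184, 0.144 and 0.07. Ifnb1, Ifna4 and Ifnk, 3 of the 5 listed ligands, did not pass the filter on dim probes. The remaining called genes, listed here to complete the counts, were Ifih1, Zbp1, Eif2ak2, Ifi35, Bst2, Parp12, Ifi204 and Gbp2 (higher) and Usp25, Tlr9, Isg15, Isg20 and Oas3 (lower). In ATM-KO and in Scid, 0 of the 64 were called in either direction by limma, with medians of -0.27 and -0.12. Over all genes, 0.0725% were higher and 0.165% lower in ATM-KO, and 0.0594% higher and 1.02% lower in Scid. By unadjusted limma p under 0.05, there were 5 higher and 11 lower in ATM-KO, and 1 higher and 5 lower in Scid. Of all 15162 genes, 1829 (ATM-KO) and 1452 (Scid) had such a p in either direction.

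**Figure D4:**
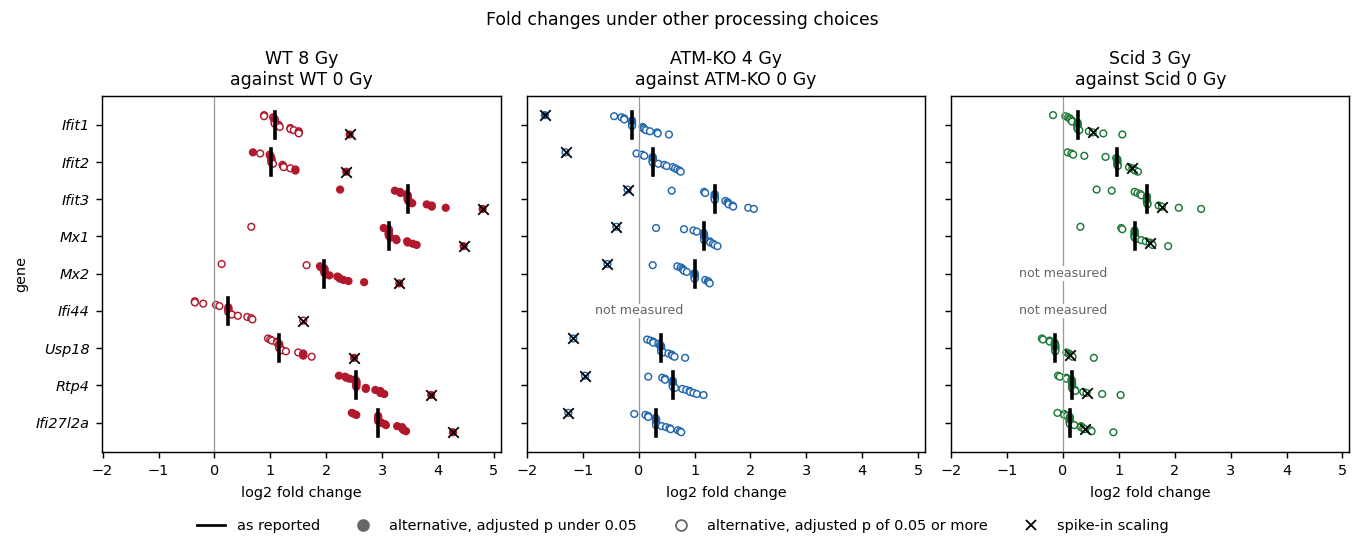
Log2 fold changes of the 9 genes in the irradiation comparisons under each alternative processing (points, spread vertically for legibility, filled where adjusted p was under 0.05), with the reported value as a bar and scaling to spike-in probes as a cross. Ifit3, Rtp4 and Ifi27l2a in WT stay to the right of 2 under every alternative. In ATM-KO, by contrast, the crosses lie below 0 for every gene shown. The values of Mx2 in ATM-KO and Mx1 in Scid rest on background.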

How the data were processed

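Blood RNA of 32 mice was hybridised to 1-colour Agilent arrays, 1 per mouse. The deposited scanner files hold the processed spot intensity, made by the authors with Agilent Feature Extraction (version 12.0.2 per the submitters' processing notes, 11.5.1.1 per the file headers) after background correction. Coordinates are in build mm9 per the file headers. The authors also deposited a value table on a log2 scale. Within 0.01, 98.1 to 99.1% of an array's values there equalled log2 of the scanner signal plus a constant. Its column medians were 5.51 to 6.44, its centring is not known, and it is complete over the arrays for 10413 probes.

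From the intensities, log2 values were taken relative to each array's 75th percentile, with spots of a probe averaged and outlier spots left out (279 values missing). Probes entered the model if 4 or more arrays of any 1 group measured them (18373 of 39429 probes, 15162 genes). A linear model over the 6 groups was fitted with limma 3.58.1 in R 4.3.3, with Benjamini-Hochberg adjustment over all genes and a threshold of 0.05. It was tested on simulated data. The 6 groups share 1 estimate of spread per gene, so the spread of each enters the SE, interval and p of every comparison. Tables and figures used Python 3.11.15. Precision is limited by the number of arrays. No fold is given where 1 or both groups were at background on all arrays.

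Samples were grouped by the labels, and the design text calls the replicates individual mice. All 9 genes are described. Of the other interferon genes, values are given for up to 4 called genes of largest change and for Stat2, Irf7 and Irf9 (1 further gene of that rule is not reported here), and the 8 genes most like the members' mean are named. The 9 genes and all lists were chosen with earlier results of these data known. Alternatives covered the scaling, background correction, filter, probe choice, slide, scan day, replicate number, array weights, left-out arrays and the authors' values. The table with missing values allowed, the counts of other interferon genes under the alternatives, and the omission of 2 arrays with marker scores against their label were added after seeing the data.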

Additional observations from a re-analysis of the deposited data

Results flagged for a closer look

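In 4 of the 54 combinations of gene and group, 1 array lay far from the others of its group by Dixon's test, in a setting where chance gives about 1 in 20. In 3 of the 4 that array was the highest. Ifit3 was at 3.86 in Scid 3 Gy replicate 2, against -1.31 to -0.01 on the other 4 arrays of the group. Ifi44 was at 2.57 in WT 0 Gy replicate 4, against -4.82 to -2.66 on the other 5, and it was the only WT 0 Gy array where Ifi44 was well above background. Ifi44 was at -2.97 in ATM-KO 0 Gy replicate 4, against -4.49 to -4.18, and Mx2 was at -4.03 in ATM-KO 0 Gy replicate 5, against -2.83 to -2.42, but neither gene was well above background on any array of that group. Replicates 1 and 4 of ATM-KO 4 Gy were not singled out in this way, since the test asks for 1 array apart from the rest.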

How the results depend on the processing

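In WT, Ifit3 (2.25 to 4.80), Rtp4 (2.23 to 3.88) and Ifi27l2a (2.46 to 4.27) were called under every alternative in which they were tested, and leaving out any 1 array kept 5 members called there and 0 in the other comparisons. Mx1 and Mx2 lost their call with normexp, and Mx2 without the 4 arrays bright for liver transcripts. Both passed the filter on dim probes by their WT 8 Gy arrays alone, so their calls are a description. The count of members called in WT was 8 with spike-in scaling, 3 of 4 tested in the authors' deposited values and 2 of 2 tested among probes detected on all arrays. Spike-in scaling also called 1 member in ATM-KO (Ifit1, -1.68), 8 for ATM-KO minus WT and 1 for ATM-KO minus Scid, all lower, where it called 74.7%, 91.8% and 38.5% of all genes lower, so these counts are no result about the members. It turned Ifit2 (-1.31), Ifit3 (-0.20), Mx1 (-0.40), Mx2 (-0.56), Usp18 (-1.17), Rtp4 (-0.96) and Ifi27l2a (-1.26) negative in ATM-KO and Usp18 positive in Scid (0.13). The median over all genes was then 1.32 in WT, -1.72 in ATM-KO and 0.27 in Scid. Over all genes in WT, 172 were higher and 920 lower, against 5251 and 159 with spike-in scaling, and 785 and 618 with the percentile over probes detected on all arrays. The cause was not tested.

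Other values that turned sign lay between -0.35 and 0.55. For Ifi44 in WT they were -0.20 with normexp, -0.35 with the slide and -0.35 with the scan day as a block. For Ifit1 in ATM-KO they were 0.13 (percentile over detected probes), 0.20 (normexp), 0.34 (slide), 0.54 (scan day), 0.08 (without liver-bright arrays), 0.33 (without arrays under 30% detected) and 0.10 (array weights). Ifi27l2a in ATM-KO had -0.08 with normexp, and Ifit2 -0.04 with quantile normalization. In Scid, Usp18 had 0.06 (percentile over detected probes), 0.10 (normexp), 0.55 (slide), 0.15 (scan day) and 0.17 (without arrays under 30% detected). Rtp4 had -0.06 and Ifi27l2a -0.10 with the array median, and array weights gave -0.18 for Ifit1 and -0.09 for Rtp4. Leaving out 1 array gave -0.16 to 1.33 for Ifi44 in WT. In ATM-KO it gave -0.63 to 0.33 for Ifit1, -0.16 to 0.69 for Ifit2, -0.07 to 0.63 for Usp18 and -0.10 to 0.70 for Ifi27l2a. In Scid it gave -0.17 to 0.48 for Ifit1, -0.60 to 0.17 for Usp18, -0.37 to 0.46 for Rtp4 and -0.45 to 0.49 for Ifi27l2a.

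The other interferon genes called higher in WT numbered 25 (percentile over detected probes), 42 (spike-in, against 34.6% of all genes), 17 (authors' values, missing allowed), 1 (probes detected on all arrays), 5 (without liver-bright arrays) and 26 (array weights), and 7 to 14 when 1 array was left out. The same counts over all genes (15162 unless stated) were 785, 5251, 425 of 13714, 45 of 5273, 60, 1139 and 68 to 356. Those called lower in WT were 1 (spike-in), 0 (normexp) and 5 to 9 (1 array left out), against 159, 193 and 620 to 1479 of all 15162 genes. In ATM-KO, those lower were 43 of 64 (spike-in, against 74.7% of all genes), 2 (authors' values), 2 (missing allowed), 1 (without arrays under 30% detected), 2 (array weights) and 0 to 4 (1 array left out). Over all genes they were 11331, 385 of 8676, 303 of 13714, 176, 434 and 1 to 221. In Scid the interferon genes lower were 2 (authors' values), 4 (missing allowed), 2 (probes detected on all arrays), 1 (every probe), 2 (without liver-bright arrays), 4 (without arrays under 30% detected), 7 (array weights) and 0 to 4 (1 array left out). Over all genes they were 309 of 8676, 360 of 13714, 242 of 5273, 235 of 18373 probes, 256, 540, 1059 and 42 to 390. No result about the list is drawn from these counts.

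The replicate numbers do not pair the arrays: deviations of same-numbered arrays correlated at -0.72 to 0.45. With the replicate block 5 members stayed called in WT (Ifit3 3.23, Mx1 3.13, Mx2 2.23, Rtp4 2.23, Ifi27l2a 2.50) and 0 elsewhere, and Ifit1 in ATM-KO was 0.07. Dim signal limits Mx1, Mx2 and Ifi44, which sat at background on most sham arrays.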
